A study of Mus musculus with 32 samples.

Results

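The 6 genes described here are Apela, Olfml3, Pcdh7, Trp53i11, Cytip and Padi4, out of 19938 genes measured. They were chosen by their expression values, because those in tumour cultures that received HRAS and MYC one after the other differed from those in cultures that received both at once, or from those in the culture type they started from. RNA came from 32 neurosphere cultures of mouse brain tumours, 1 Affymetrix Mouse Gene 1.0 ST array each. All were raised from p53-deficient cells of strain B6;129-Trp53tm1Brd, taken from the wall of the lateral ventricle after birth. The cells were given oncogenes in culture and transplanted into the brain, and transgene-expressing tumour cells were then sorted by flow cytometry and grown again as neurospheres.

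Gliomas gave the cultures with HRAS (n = 5) and HRAS+Bmi1 (n = 2). Primitive neuroectodermal tumours (PNET) gave the cultures with MYC (n = 6), MYC+Ezh2 (n = 5) and MYC+Bmi1 (n = 3). Cultures that received HRAS+MYC together (n = 7) came from tumours resembling atypical teratoid/rhabdoid tumours. In the group called here MYC then HRAS (n = 2), HRAS was added to PNET-derived sphere cells, and a second tumour was grown. In HRAS then MYC (n = 2), MYC was added to glioma-derived sphere cells. Every group lacks normal p53, and no group without an added oncogene was analysed here. The age and sex of the animals, the promoter of the transgenes and the number of parent tumours behind each consecutive group are not in the labels. The labels do not say that arrays of a group came from separate tumours, so the p-values reflect variation among these arrays, which may be technical.

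HRAS is a small GTPase that activates the MAP kinase cascade, and MYC, a growth-promoting transcription factor, binds E-box sequences. Bmi1 and Ezh2 are subunits of the Polycomb repressive complexes, which keep developmental genes silent. The 6 genes act in separate places. Apela encodes a secreted peptide that activates the apelin receptor in the early embryo. Olfml3 encodes a secreted olfactomedin-domain glycoprotein, and Pcdh7 a delta protocadherin of the cell surface. Trp53i11 is named as a p53-inducible gene, Cytip encodes a scaffold protein that binds cytohesins and is known from blood cells, and Padi4 encodes an enzyme that turns arginine into citrulline, on histones among others, and is best known from neutrophils.

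All 6 genes had a RefSeq promoter window on GRCm38.p6, from 250 bases before to 50 after the gene's start. These windows were searched on both strands for CACGTG (E-box, the letters MYC binds), TGANTCA (AP-1), TGACGTCA (CRE) and CCGGAA (ETS), since AP-1 and ETS factors act below the MAP kinases. Matches were found in 3 of the 6 windows, and these 3 are printed with the matched letters in capitals. Olfml3 (chr3:103737952-103738251, minus strand) and Cytip (chr2:58160073-58160372, minus strand) each hold the ETS letters read on the other strand as TTCCGG, at -190 and -214 from the start. Padi4 (chr4:140774154-140774453, minus strand) holds TGACTCA at -54 and CACGTG at position 45, with the first base of the gene as 1.
Olfml3: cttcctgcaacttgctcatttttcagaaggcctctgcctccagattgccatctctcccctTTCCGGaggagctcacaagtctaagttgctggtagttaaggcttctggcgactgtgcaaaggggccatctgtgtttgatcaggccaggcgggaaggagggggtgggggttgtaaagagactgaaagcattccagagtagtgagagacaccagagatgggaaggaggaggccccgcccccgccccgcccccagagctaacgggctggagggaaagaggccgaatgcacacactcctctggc
Cytip: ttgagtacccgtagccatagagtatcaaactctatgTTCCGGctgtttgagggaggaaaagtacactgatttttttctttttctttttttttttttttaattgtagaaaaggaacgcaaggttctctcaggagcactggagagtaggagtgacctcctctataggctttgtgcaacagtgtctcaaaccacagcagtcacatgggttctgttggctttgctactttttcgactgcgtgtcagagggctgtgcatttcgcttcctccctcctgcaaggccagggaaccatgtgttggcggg
Padi4: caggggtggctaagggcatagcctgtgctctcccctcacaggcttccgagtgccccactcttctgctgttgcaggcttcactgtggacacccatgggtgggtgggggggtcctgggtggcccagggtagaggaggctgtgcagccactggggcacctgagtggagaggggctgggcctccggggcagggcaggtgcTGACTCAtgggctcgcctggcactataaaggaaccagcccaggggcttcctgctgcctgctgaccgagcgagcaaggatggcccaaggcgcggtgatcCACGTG
Of 32851 windows in the RefSeq table, 7.15% held the E-box letters, 7.81% AP-1, 1.79% CRE and 14.9% ETS, with no overlap between the matches shown. No match was found in Trp53i11 (chr2:93187298-93187597, plus strand), Apela (chr8:65037287-65037586, minus strand) or Pcdh7 (chr5:57717831-57718130, plus strand). A match is a description of letters and does not show that a factor binds.

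Values are on the RMA log2 scale, in which 1 unit is a doubling of signal, and a level is comparable between arrays of 1 gene but not between genes. The array medians over all probe sets lay between 5.59 and 5.79. The neural stem cell marker Sox2 was at 9.62 or more in all arrays but 2. MYC replicates 4 and 5 read 4.85 and 6.62, against 10.74 or more in the other MYC arrays. Some results that rest on MYC are therefore also given without these 2, and those not given so may move too. Gfap, a marker of astrocytes, was below the array medians in the HRAS glioma cultures, with a mean of 5.09. Sox2 did not stand for all 8 neural stem and glial markers read here. Of these, 5 had a group mean under 6 in HRAS then MYC, 5 in HRAS+MYC and 4 in HRAS. The number was 0 in HRAS+Bmi1 and 1 in each other group. Xist, expressed from the inactive X, and Y-linked genes differed between the consecutive groups. Xist read 4.29 and 4.55 in HRAS then MYC and 8.33 and 8.38 in MYC then HRAS, while the Y-linked Eif2s3y read 7.55 and 8.18 against 3.98 and 3.82. The order of the oncogenes and these sex-linked levels therefore cannot be told apart between those 2 groups.

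**Figure D1:**
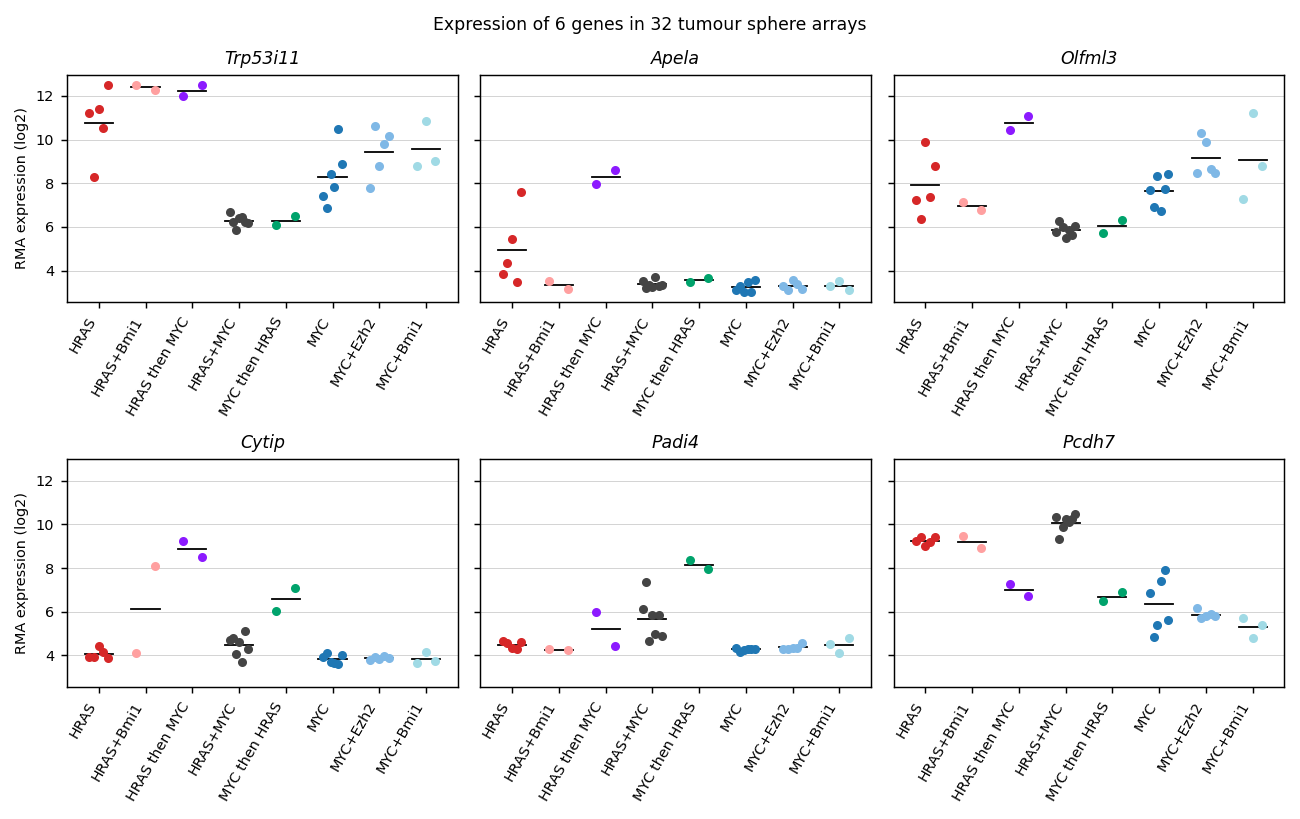
RMA expression (log2) of the 6 genes in each of 32 arrays, by group; points are arrays and bars are group means. Trp53i11, Apela, Olfml3 and Cytip are high in both HRAS then MYC arrays, Padi4 is highest in the MYC then HRAS arrays, and Pcdh7 is highest in the HRAS+MYC arrays.

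Apela, the embryonic ligand, stood high in 1 group and was low almost everywhere else. The HRAS then MYC arrays read 7.99 and 8.63. In the 5 HRAS arrays Apela read 3.83, 4.37, 5.45, 3.49 and 7.59. The glioma group therefore ran from the level of the PNET cultures up to nearly that of HRAS then MYC, and its highest array, replicate 5, stayed below both.
The HRAS+MYC arrays ran from 3.20 through a median of 3.33 to 3.71. In MYC then HRAS Apela read 3.48 and 3.66, and in HRAS+Bmi1 3.51 and 3.18. The MYC arrays spanned 3.03 to 3.58 around a median of 3.21. These groups overlapped one another, as did MYC+Ezh2 (3.29, 3.09, 3.58, 3.37 and 3.17) and MYC+Bmi1 (3.31, 3.54 and 3.09). The mean in HRAS then MYC was 4.93 log2 units above that in HRAS+MYC and 3.36 units above that in HRAS. Without detection calls a low reading may be background, so no fold is given against a group below the array medians. In the order of the 8 group means HRAS then MYC came first and HRAS second, without overlap, and the other 6 means lay between 3.26 and 3.57.

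Olfml3, the secreted glycoprotein, was high after HRAS then MYC and low where HRAS and MYC were given at once or HRAS came last. The HRAS then MYC arrays read 10.42 and 11.06. In HRAS+MYC the lowest array was 5.52, the median 5.86 and the highest 6.29. The MYC then HRAS arrays read 5.71 and 6.34, inside or next to the HRAS+MYC range and below every MYC array, whose lowest was 6.74.
In HRAS, Olfml3 varied between arrays, at 7.22, 6.35, 9.89, 7.36 and 8.80. The MYC median was 7.72 and the highest MYC array 8.41. MYC+Ezh2 read 8.46, 10.30, 9.87, 8.64 and 8.47, which placed every array above the highest MYC array. The 3 MYC+Bmi1 arrays were spread widely, at 7.26, 11.20 and 8.81, and the HRAS+Bmi1 arrays read 7.16 and 6.79. The mean in HRAS then MYC exceeded that in HRAS+MYC by 4.87 log2 units and that in HRAS by 2.82 units (7.05-fold). MYC then HRAS differed from MYC by -1.62 log2 units, or -1.82 without MYC replicates 4 and 5. It lay 0.16 units from HRAS+MYC. MYC then HRAS and HRAS+MYC read near the array medians and may be partly background, so no fold is given for them. In the order of means, HRAS then MYC led MYC+Ezh2 without overlap, although the highest MYC+Bmi1 array was above both HRAS then MYC arrays.

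Pcdh7, the adhesion protein, lay below HRAS+MYC in both consecutive orders. The HRAS+MYC arrays ran from 9.31 through 10.23 to 10.47. The HRAS then MYC arrays read 7.29 and 6.74, and the MYC then HRAS arrays 6.47 and 6.90. Both consecutive groups overlapped each other and lay under every HRAS+MYC array.
The HRAS arrays were tight at 9.23, 9.42, 8.995, 9.20 and 9.43. HRAS+Bmi1 read 9.48 and 8.92. In MYC the lowest array was 4.82, the median 6.23 and the highest 7.91, a range that held both consecutive groups. Without MYC replicates 4 and 5 the highest was 6.86, below HRAS then MYC replicate 1 and MYC then HRAS replicate 2. MYC+Ezh2 read 6.18, 5.73, 5.79, 5.88 and 5.80, and MYC+Bmi1 5.72, 4.82 and 5.38. The log2 difference from HRAS+MYC was -3.07 (8.42-fold lower) for HRAS then MYC and -3.40 (10.6-fold lower) for MYC then HRAS. Against their parents the groups differed, with a log2 difference of -2.24 for HRAS then MYC from HRAS and 0.35 for MYC then HRAS from MYC, or 1.01 without MYC replicates 4 and 5, which hold the highest MYC readings. The values without these 2 MYC arrays were computed after the data were seen. The order of means fell into a high set (HRAS+MYC, HRAS and HRAS+Bmi1) and a low set that began with HRAS then MYC, without overlap between them.

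Trp53i11, named for its induction by p53, had the widest span of group means among the 6 genes. In HRAS then MYC it read 11.99 and 12.50. The HRAS+MYC arrays lay between 5.85 and 6.68 with a median of 6.23. The MYC then HRAS arrays, at 6.08 and 6.50, fell inside the HRAS+MYC range.
HRAS arrays read 11.22, 8.27, 11.40, 10.51 and 12.50, and the HRAS+Bmi1 arrays 12.51 and 12.28. HRAS then MYC therefore overlapped both glioma groups. MYC ran from 6.85 through 8.13 to 10.49, MYC+Ezh2 read 7.77, 10.61, 8.79, 9.80 and 10.17, and MYC+Bmi1 read 8.81, 10.84 and 9.01. The mean in HRAS then MYC was 5.95 log2 units (62.0-fold) above HRAS+MYC and 1.46 units (2.75-fold) above HRAS. MYC then HRAS differed from HRAS+MYC by 0.00 units and from MYC by -2.02 (4.05-fold lower), with every array under every MYC array. Without MYC replicates 4 and 5 its difference from MYC was -1.60. Neighbouring groups in the order of means overlapped at each step except between MYC and MYC then HRAS.

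Cytip, the cytohesin-binding scaffold, stood above its parent level in both consecutive groups. In HRAS then MYC it read 9.22 and 8.53, and in MYC then HRAS 6.05 and 7.11. The HRAS+MYC arrays spanned 3.70 to 5.11 around a median of 4.63. Both consecutive groups lay above all HRAS+MYC arrays, and HRAS then MYC lay above MYC then HRAS.
HRAS read 3.95, 3.91, 4.44, 4.15 and 3.89. MYC ran from 3.59 to 4.11 with a median of 3.81, MYC+Ezh2 read 3.80, 3.91, 3.82, 3.95 and 3.89, and MYC+Bmi1 read 3.66, 4.16 and 3.73. These groups overlapped and were low throughout. HRAS+Bmi1 was split, at 4.12 in replicate 1 and 8.10 in replicate 2. The mean of HRAS then MYC was 4.40 log2 units above HRAS+MYC and 4.81 units above HRAS. For MYC then HRAS the differences were 2.11 units from HRAS+MYC and 2.75 units from MYC.

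Padi4, the citrullinating enzyme, was highest in MYC then HRAS. Those arrays read 8.35 and 7.95. HRAS+MYC varied from 4.65 through 5.83 to 7.35. The 2 HRAS then MYC arrays disagreed, at 6.00 and 4.44, inside or just below the HRAS+MYC range.
HRAS arrays read 4.65, 4.56, 4.35, 4.28 and 4.64, and HRAS+Bmi1 arrays 4.28 and 4.25. MYC stayed between 4.17 and 4.35 with a median of 4.29. MYC+Ezh2 read 4.28, 4.29, 4.34, 4.35 and 4.57, and MYC+Bmi1 4.52, 4.12 and 4.78. Every group that carried only HRAS or only MYC, with or without a Polycomb subunit, was thus at a common low level. The mean in MYC then HRAS was 2.48 log2 units above HRAS+MYC and 3.87 units above MYC. The HRAS+MYC mean of 5.67 lay among the array medians, so no fold is given for Padi4. For HRAS then MYC the difference from HRAS+MYC was -0.44, but 0.33 without its replicate 2, and the difference from HRAS was 0.73, but -0.05 without its replicate 1. The direction for Padi4 in HRAS then MYC therefore rested on 1 array.

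Since these contrasts chose the genes, they are given as description with no test. The arrays of HRAS then MYC and HRAS+MYC did not overlap for 5 of the 6 genes, where 27.9% of all genes did not. For MYC then HRAS against HRAS+MYC they did not overlap for 3 genes, against 10.7% of all genes. Against the parents the count was 4 for HRAS then MYC and HRAS (28.6% of all genes) and 4 for MYC then HRAS and MYC (28.0%). Between the 2 orders it was 5, with 49.7% of all genes. The median size of the members' difference between HRAS then MYC and HRAS+MYC was 4.64 log2 units, beside 0.19 over all genes. For MYC then HRAS these medians were 1.15 and 0.14. The comparisons against HRAS+MYC share that group's arrays.

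**Figure D2:**
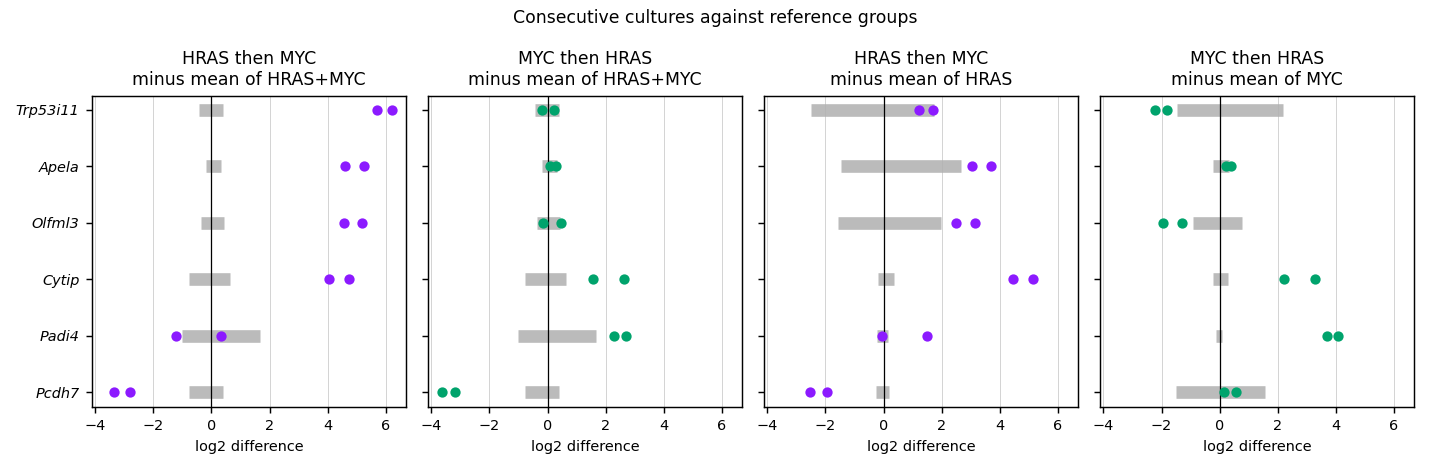
Log2 difference of each consecutive array (points) from the mean of a reference group, for the 6 genes; grey bars span the reference group's own arrays around their mean. Trp53i11, Apela, Olfml3 and Cytip lie 4.40 to 5.95 units above HRAS+MYC in HRAS then MYC, and Pcdh7 lies below HRAS+MYC in both orders.

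Between the 2 orders, several kinds of pattern were seen. Trp53i11, Apela and Olfml3 were higher by 5.95, 4.74 and 4.72 log2 units in HRAS then MYC than in MYC then HRAS, and in these genes MYC then HRAS overlapped HRAS+MYC. Cytip was higher in HRAS then MYC by 2.29 units but lay above HRAS+MYC in both orders. Padi4 had the opposite sign, with a difference of -2.93. Pcdh7 differed by 0.33, and its arrays overlapped between the orders. Across all genes the HRAS then MYC arrays differed from HRAS+MYC arrays by a mean absolute 0.374 to 0.477 log2 units per gene and from HRAS arrays by 0.387 to 0.510. Their distance from the MYC then HRAS arrays was 0.324 to 0.422. The MYC then HRAS arrays were nearer to HRAS+MYC (0.279 to 0.353) than to MYC (0.501 to 0.639).

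HRAS replicate 5 held the highest Apela and Trp53i11 values of its group and the value nearest to HRAS then MYC for both genes. Over all genes that array was not the nearest HRAS array to HRAS then MYC. Its distances were 0.411 and 0.440, while those of HRAS replicate 2 were 0.387 and 0.417. Which tumour the consecutive cells came from is not in the labels.

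The arrays with added Bmi1 or Ezh2 had no part in choosing the genes. The difference between HRAS+Bmi1 and MYC+Bmi1 is thus the 1 tested here whose group means share no array with the choice. Its SE and p-values come from the fit to all arrays, including those that chose the genes. These SE and p-values are therefore not independent of the choice. Between HRAS+Bmi1 and MYC+Bmi1 cultures, 3 of the 6 genes were higher in the HRAS+Bmi1 cultures, where 13.8% of all genes passed in either direction (limma, Benjamini-Hochberg adjusted p under 0.05 over all genes). Pcdh7 was higher by 3.89 ± 0.549 log2 units (SE; adjusted p = 1.214e-05). Trp53i11 was higher by 2.84 ± 0.907 (adjusted p = 0.0347). Cytip was higher by 2.26 ± 0.578 (adjusted p = 0.00786). The Pcdh7 groups lay far apart, at 8.92 or more against 5.72 or less, and the Trp53i11 arrays, at 12.28 or more against 10.84 or less, did not overlap either. In the fit of these 2 groups alone 2 of the 6 genes passed, and Cytip did not (adjusted p = 0.2605). The Cytip call rested on 1 array. Cytip differed by 0.28 (adjusted p = 0.774) without HRAS+Bmi1 replicate 2 and by 4.25 without HRAS+Bmi1 replicate 1. The Trp53i11 difference kept its size with fewer arrays but did not pass without MYC+Bmi1 replicate 1 (2.47, adjusted p = 0.114), MYC+Bmi1 replicate 3 (2.57, 0.109), HRAS+Bmi1 replicate 1 (2.73, 0.204) or HRAS+Bmi1 replicate 2 (2.96, 0.145). Olfml3 differed by -2.11 (adjusted p = 0.0938), and by -3.03 (adjusted p = 0.0134) without MYC+Bmi1 replicate 1 or -1.06 (0.443) without MYC+Bmi1 replicate 2, while Apela (0.03, adjusted p = 0.979) and Padi4 (-0.20, 0.837) did not pass.

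The remaining comparisons all contain HRAS, MYC or HRAS+MYC arrays, which also entered the differences that chose the genes, so their p-values are not independent of the choice and support nothing about it. Without a Polycomb subunit, HRAS against MYC gave 3 of 6 genes higher in HRAS and none lower, beside 15.4% of all genes higher and 18.0% lower. Pcdh7 was higher in HRAS by 2.92 ± 0.364 log2 units (adjusted p = 3.575e-07). Trp53i11 was higher by 2.47 ± 0.602 (adjusted p = 0.00181). Apela was higher by 1.69 ± 0.405 (adjusted p = 0.00159), and by 1.03 without HRAS replicate 5. The Apela call was lost when HRAS and MYC were fitted without the other groups (adjusted p = 0.0616). Olfml3 (0.28, adjusted p = 0.770), Cytip (0.24, 0.709) and Padi4 (0.22, 0.666) did not pass. Without MYC replicates 4 and 5, the differences were 3.58 for Pcdh7, 2.89 for Trp53i11 and 1.69 for Apela, and the same 3 genes passed.

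With Bmi1 added to HRAS, Cytip was higher by 2.04 ± 0.529 log2 units (adjusted p = 0.0187), the 1 member that passed, beside 5.91% of all genes. Without HRAS+Bmi1 replicate 2 that difference was 0.06 (adjusted p = 0.991), and without HRAS+Bmi1 replicate 1 it was 4.03. Apela differed by -1.60 ± 0.560 (adjusted p = 0.0934), and the call was made without HRAS replicate 1 (-1.88, adjusted p = 0.0413) or HRAS replicate 4 (-1.96, 0.0279), but the difference was -0.94 (0.0851) without HRAS replicate 5. Adding Ezh2 to MYC gave 0 of 6 calls by limma, with 1 gene at an unadjusted p under 0.05, beside 0.246% of all genes called. That gene was Olfml3, whose 5 MYC+Ezh2 arrays all lay above the 6 MYC arrays (1.50 ± 0.550, unadjusted p = 0.0110, adjusted p = 0.307). For MYC+Bmi1 against MYC, limma likewise called 0 of 6, with 2 genes at an unadjusted p under 0.05 and 0.150% of all genes called. Olfml3 differed there by 1.44 ± 0.642 (adjusted p = 0.373), but by 0.39 without MYC+Bmi1 replicate 2 and 2.36 without MYC+Bmi1 replicate 1. Pcdh7 differed by -1.03 ± 0.425 (adjusted p = 0.335). Leaving out MYC replicates 4 and 5 gave -0.37 for Pcdh7. Whether the HRAS to MYC difference itself changed with Bmi1 was tested as an interaction, which called 0 of 6 by limma, 3 at an unadjusted p under 0.05, beside 2.43% of all genes. Cytip was nearest, with an interaction of 2.02 ± 0.693 (adjusted p = 0.120). This rested on 1 array, with 4.01 without HRAS+Bmi1 replicate 1 and 0.04 without HRAS+Bmi1 replicate 2. The others of the 3 were Olfml3 (-2.39 ± 0.995, adjusted p = 0.209) and Apela (-1.65 ± 0.733, 0.247). The Olfml3 interaction was -1.34 without MYC+Bmi1 replicate 2, and that of Apela -0.99 without HRAS replicate 5.

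Cultures given both oncogenes at once were also set against those given 1. The same dependence on the choice of genes holds here, most directly for HRAS+MYC. Against HRAS, HRAS+MYC was lower in 3 of the 6 genes. The log2 difference was -4.49 ± 0.582 in Trp53i11 (adjusted p = 1.729e-06), -2.06 ± 0.532 in Olfml3 (0.00488) and -1.57 ± 0.392 in Apela (0.00367). Padi4 was higher by 1.17 ± 0.299 (adjusted p = 0.00433). The Apela difference was -0.91 without HRAS replicate 5, and missed the threshold when the 2 groups were fitted alone (adjusted p = 0.0520). These 3 lower and 1 higher calls stand beside 13.0% of all genes lower and 11.7% higher. Cytip (0.41, adjusted p = 0.468) and Pcdh7 (0.83, 0.0866) did not pass, although Pcdh7 did in the fit of the 2 groups alone (adjusted p = 0.00389). Against MYC, HRAS+MYC was higher in Pcdh7 by 3.75 ± 0.334 (adjusted p = 8.012e-10) and in Padi4 by 1.39 ± 0.284 (0.000294), and lower in Trp53i11 (-2.02 ± 0.553, 0.00497) and Olfml3 (-1.78 ± 0.505, 0.00675). These calls stand beside 15.8% of all genes higher and 18.4% lower. Without MYC replicates 4 and 5 the difference was 4.41 for Pcdh7, 1.40 for Padi4, -1.60 for Trp53i11 and -1.98 for Olfml3. The same 4 genes passed, Trp53i11 with an adjusted p of 0.0320. Apela (0.12, adjusted p = 0.843) and Cytip (0.65, 0.167) did not pass, and Cytip passed in the fit of the 2 groups alone (adjusted p = 0.0227).

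**Figure D3:**
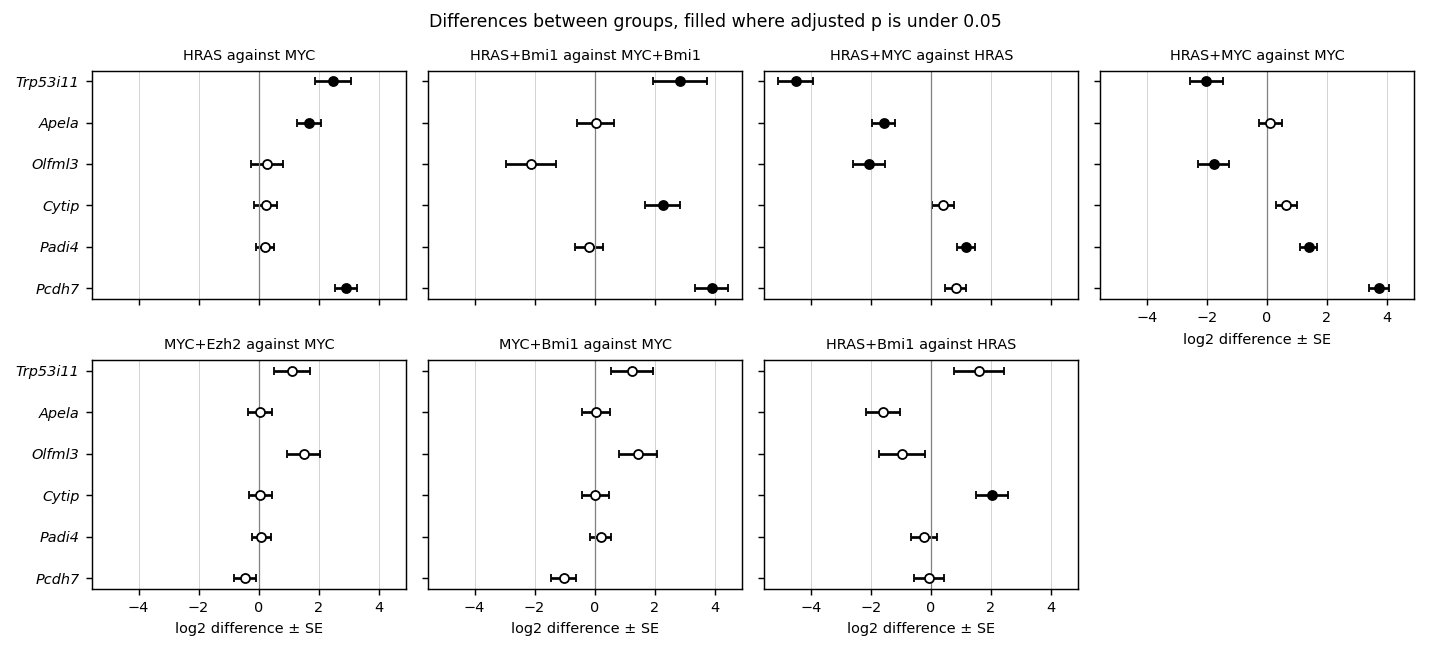
Log2 difference ± SE from the limma fit for the 6 genes in 7 comparisons, with the first-named group higher to the right; filled points had an adjusted p under 0.05. Pcdh7 is higher in HRAS than in MYC with or without Bmi1 (2.92 and 3.89), and no gene passed for MYC+Ezh2 or MYC+Bmi1 against MYC. Only the group means of HRAS+Bmi1 against MYC+Bmi1 share no array with the choice of the genes. No p-value behind the filled points is independent of that choice.

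Relatives and partners of the 6 genes were taken from lists chosen with earlier results of these data known. Their counts are to be read beside the shares over all genes, 15.4% higher and 18.0% lower in HRAS than in MYC, and 11.7% higher and 13.0% lower in HRAS+MYC than in HRAS, and lists this short show nothing particular by their counts. The apelin receptor gene Aplnr, which encodes the receptor of both Apela and Apln, stayed between 4.89 and 5.31 in group means. Apln, the other ligand, was highest in HRAS at 8.13 and read 7.29 in HRAS then MYC, 7.03 in HRAS+MYC and 6.40 in MYC. It was higher in HRAS than in MYC by 1.73 ± 0.342 log2 units (adjusted p = 0.000204) and lower in HRAS+MYC than in HRAS, with a difference of -1.10 ± 0.330 (adjusted p = 0.0145). Apela and Apln thus did not share their highest group.

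Of 8 other measured olfactomedin genes, 4 were higher and 1 lower in HRAS than in MYC, and in HRAS+MYC against HRAS none was higher and 4 were lower. Olfml2b, another secreted member, had group means of 10.59 in HRAS, 9.23 in HRAS+Bmi1 and 8.47 in HRAS then MYC, against 5.59 to 6.34 in the other groups. Its difference between HRAS+MYC and HRAS was -4.81 ± 0.303 (adjusted p = 4.768e-12). Gldn was also highest in HRAS, at 7.08.

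Of 8 other delta protocadherins, 2 were higher and 1 lower in HRAS than in MYC, and 3 were lower in HRAS+MYC than in HRAS. Pcdh18 had the reverse of the Pcdh7 pattern in HRAS+MYC, with a mean of 5.36 beside 8.30 in HRAS and 7.55 in MYC. It differed by -2.94 ± 0.366 from HRAS (adjusted p = 1.029e-06) and by -2.19 ± 0.348 from MYC (adjusted p = 1.185e-05). In the consecutive groups Pcdh18 read 8.31 after HRAS then MYC and 5.13 after MYC then HRAS. Pcdh8 was highest in HRAS (8.49) and read 5.18 in HRAS then MYC, while Pcdh10 was highest in MYC (7.89).

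Of 7 measured partners of Cytip, 3 were higher and 1 lower in HRAS than in MYC. Cyth3, which activates small ARF GTPases, had a mean of 10.15 in MYC then HRAS and 7.48 in MYC, and was higher in HRAS than in MYC by 1.72 ± 0.174 (adjusted p = 9.819e-09). Its mean was 9.51 in HRAS then MYC and 9.20 in HRAS, where Cytip itself differed by 4.81. None of 4 other peptidylarginine deiminases passed in HRAS against MYC, HRAS+MYC against HRAS or HRAS+MYC against MYC, and the widest range of their group means was that of Padi2, from 5.08 to 6.33. Of 5 other measured genes on the list of p53-related genes, 1 was higher in HRAS than in MYC and 3 were lower in HRAS+MYC than in HRAS. Trp53inp1 and Trp53inp2 read 6.97 and 5.82 in HRAS then MYC, below their means of 8.29 and 7.51 in HRAS, whereas Trp53i11 was high there.

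**Figure D4:**
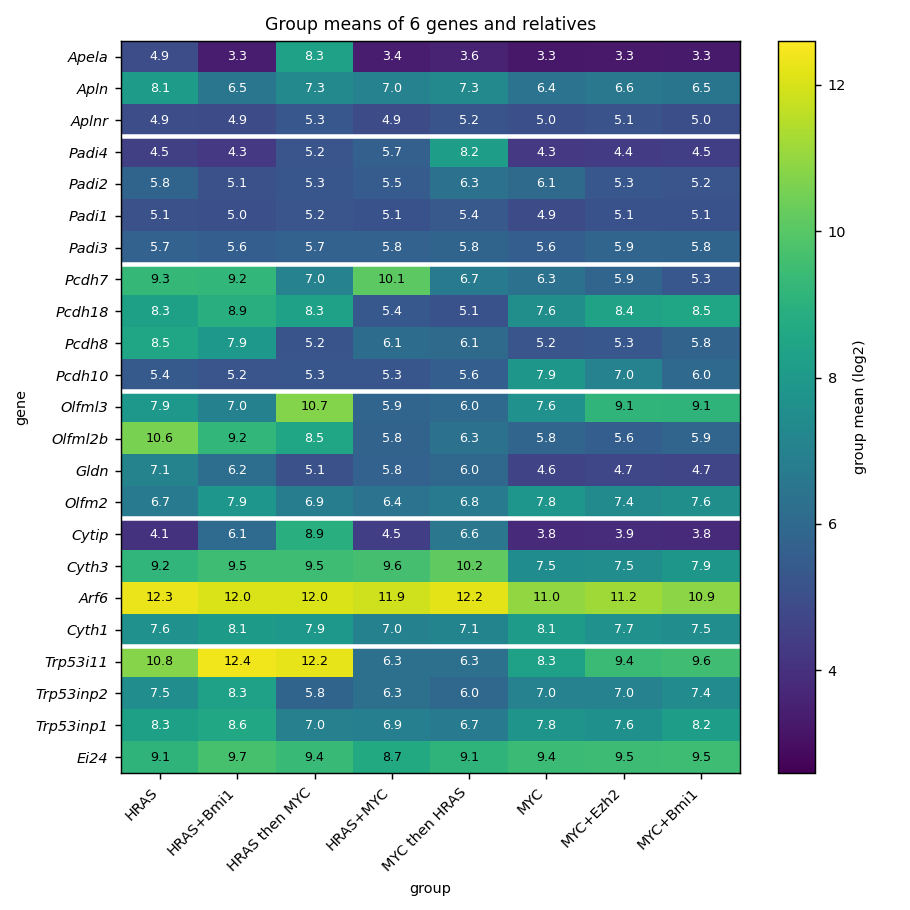
Mean RMA expression (log2) per group of the 6 genes and, under each, up to 3 relatives or partners with the widest range of group means; white lines separate families. Aplnr is low in all groups (4.89 to 5.31) and Pcdh18 is low in HRAS+MYC and MYC then HRAS (5.36 and 5.13), where Pcdh7 is 10.09 and 6.69.

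Because Padi4 and Cytip are known from blood cells, leukocyte and granulocyte markers were read in the same arrays. Of 18 such markers, 15 to 17 had a group mean under 6 in each group. Their summed signal, on the log2 scale, ran from 10.52 to 10.96 in MYC then HRAS, 9.92 to 11.39 in HRAS+MYC and 8.997 to 11.50 in HRAS. It ran from 9.14 to 9.20 in HRAS then MYC, 9.10 to 9.26 in HRAS+Bmi1 and 9.09 to 9.52 in the 3 MYC groups without HRAS. The pan-leukocyte gene Ptprc had group means from 4.38 to 5.16, and the neutrophil genes S100a8, Elane and Mpo stayed between 3.97 and 5.12. S100a9 and Itgb2 had their highest means in MYC then HRAS, at 5.45 and 5.38. Laptm5, a lysosomal gene of blood cells, read 10.50 and 10.04 in HRAS replicates 1 and 2 and 7.66 in MYC then HRAS replicate 2, and was higher in HRAS than in MYC by 2.33 ± 0.679 (adjusted p = 0.00810). Ly6g, a neutrophil surface gene, differed from the other granulocyte genes, with 8.64 and 6.65 in the MYC then HRAS arrays and a mean of 6.90 in HRAS+MYC, against 3.46 to 3.85 in the other groups. Both groups are also those with the highest Padi4 means. In HRAS+MYC the array with the highest Padi4, replicate 2 at 7.35, had the lowest Ly6g of that group, 4.40. The macrophage-associated gene Cd68 had means of 9.65 in MYC then HRAS, 9.58 in HRAS+MYC and 9.11 in HRAS, and 6.40 in HRAS then MYC, where Cytip was highest. The part of these markers in the Padi4 and Cytip values was not tested. Fewer expressing cells and less RNA per cell cannot be told apart in such bulk samples. Of 9 endothelial and pericyte markers, 8 had a group mean under 6 in HRAS then MYC and 9 in each other group. Their summed signal ran from 8.50 to 8.91 in HRAS then MYC, 8.11 to 8.77 in HRAS and 7.90 to 8.36 in the other groups. Pdgfrb (7.71 and 6.63) and Cdh5 (5.75 and 5.88) had their highest group means in HRAS then MYC, where 4 of the 6 genes were also high, while Pecam1 stayed between 5.02 and 5.52. Their part in those values was not tested.

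Genes with the most similar pattern were found by correlation over the 8 group means. The candidates were 1910 genes, not mapped to X or Y, whose means spanned at least 2 log2 units. Unnamed gene models, olfactory and vomeronasal receptor genes and small RNA genes were left out. The correlations are descriptions over means that share the same arrays, including the groups that chose the genes. Among 8 means, 1 high value can by itself give a high r. Nearest to Apela was Crispld1 (r = 0.988), followed by Cped1 (0.980). Crispld1 had a mean of 9.11 in HRAS then MYC, 5.58 in HRAS and 4.75 to 4.91 elsewhere. Both genes were highest in HRAS then MYC, and over the 32 single arrays their correlations with Apela were 0.806 and 0.731. Olfml3 was followed by G0s2 (0.980), an inhibitor of fat breakdown, and Selenbp1 (0.975). Trp53i11 was matched by the RNA-binding gene Rbms3 (0.976) and the lectin receptor gene Cd302 (0.944). For Padi4 these were Car6 (0.973), a secreted carbonic anhydrase, and Glp1r (0.952), the receptor of glucagon-like peptide. Glp1r read 7.77 in MYC then HRAS, 6.03 in HRAS+MYC and 4.81 to 5.24 in the other groups. The nearest genes to Cytip were less alike, with Pmp22 at 0.934 and Cbr3 at 0.899, and over the 32 single arrays their correlations were 0.394 and 0.412. Pcdh7 had Ifi202b (0.925) and the transcription factor gene Stat6 (0.920), which read 8.70 in HRAS+MYC, 7.56 in HRAS and 5.19 in MYC. In HRAS then MYC Stat6 had a mean of 7.38 (6.61 and 8.15), near that in HRAS. Pcdh7 differed there, at 7.01 beside 9.26 in HRAS.

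**Figure D5:**
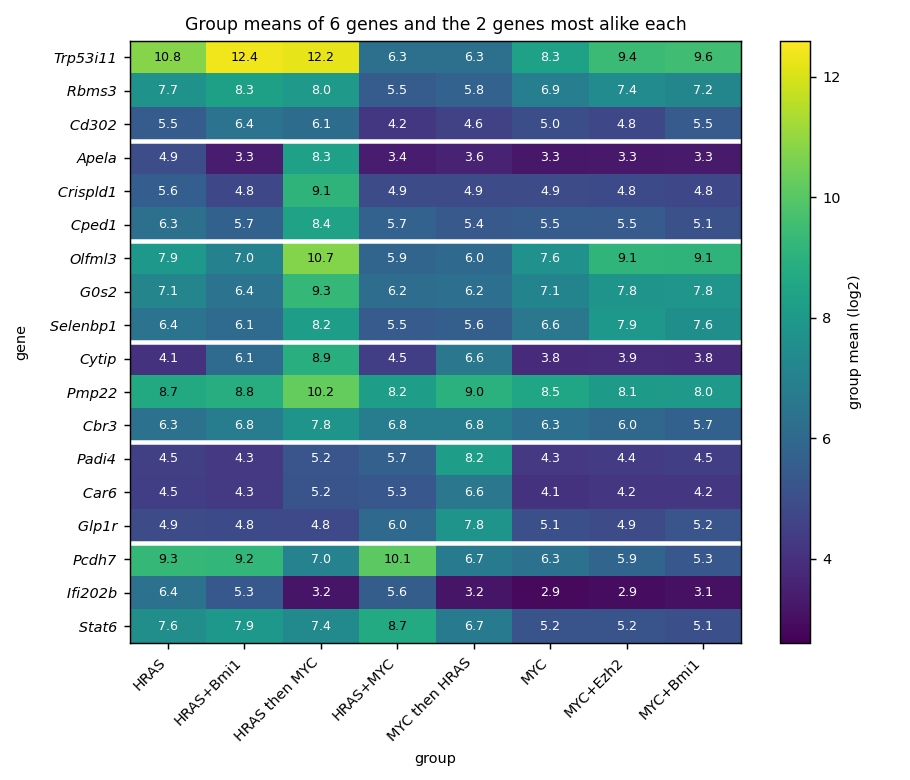
Mean RMA expression (log2) per group of each of the 6 genes and, under it, the 2 genes with the highest correlation over the 8 group means. Crispld1 follows Apela in standing high in HRAS then MYC (9.11), and Glp1r follows Padi4 in standing high in MYC then HRAS (7.77).

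Among themselves the 6 genes followed several patterns. Over the 8 group means, Apela correlated with Cytip at 0.75 and with Olfml3 at 0.65, and Trp53i11 with Olfml3 at 0.65. The lowest correlation was between Trp53i11 and Padi4, at -0.61. Genes next to the members on the chromosome, 10 on either side in RefSeq order, did not as a set share the size of their differences. In the 5 comparisons of consecutive groups, the medians over the 20 neighbours of a member lay between -0.19 and 0.30 log2 units. Some single neighbours differed as much as the member or more. The largest difference was -3.85, near Pcdh7 in HRAS then MYC against HRAS+MYC, beside -3.07 for Pcdh7 itself.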

How the data were processed

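The authors deposited log2 values, 1 per probe set and array. The submitters' processing notes name RMA (the robust multi-array average) and Affymetrix Expression Console 1.0. The method corrects background, equalises the distribution between arrays and summarises probes, so a change of total RNA is not seen and low values are compressed. No detection calls were used here. Of 35557 probe sets, 21789 had 1 gene symbol. The probe set with the highest mean was kept for each of 19938 genes, with no filter on low values, and each member had 1 probe set. Groups were read from the sample titles, since the oncogene label of HRAS then MYC reads like that of HRAS+MYC.

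One model with 8 group means was fitted to all 32 arrays with limma 3.58.1 in R 4.3.3, with eBayes, 2-sided tests and Benjamini-Hochberg adjustment over all genes (threshold 0.05). No 2 arrays held identical values. The fit was tested on simulated data. The promoter windows are RefSeq's (GRCm38.p6). Named genes were the 6 members, the 2 most alike genes per member, up to 3 relatives per family and marker genes. The members and lists were chosen with earlier results of these data known. Alternatives included other fits, array weights, centring, a filter at 5, a replicate block and leaving out arrays.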

Additional observations from a re-analysis of the deposited data

Results flagged for a closer look

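Padi4 in MYC+Ezh2 replicate 5 read 4.57, far from the other arrays of its group relative to their spread. The nearest array was at 4.35 and the lowest at 4.28. This was 1 of 24 pairs of a gene and a group that were looked at, and chance flags about 1 in 20. In size the gap is small beside the Padi4 mean of 8.15 in MYC then HRAS.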

How the results depend on the processing

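Of the tests of single members, 479 with 1 array left out and 355 under other settings kept their direction and side of the threshold. Another 15 and 8 changed the sign of a difference that had not passed. Calls were lost in 6 and 4 and gained in 4 and 5 cases, most of which stand beside their results. One of the 5 was Padi4 in HRAS against MYC under a 2-sided exact permutation test, whose p of 0.0216 is unadjusted and so no call of the same kind. With array weights, Trp53i11 (1.80, adjusted p = 0.0376) and Apela (-1.36, adjusted p = 0.0178) passed in HRAS+Bmi1 against HRAS. In the fits of the compared groups alone Cytip did not pass in HRAS+Bmi1 against MYC+Bmi1 (adjusted p = 0.261) or against HRAS (0.283).

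Members called with 1 array left out numbered 1 to 3 for HRAS+Bmi1 against MYC+Bmi1, 0 to 2 for HRAS+Bmi1 against HRAS and 0 to 1 for the Bmi1 interaction. For HRAS+Bmi1 against HRAS, 3 members passed with array weights and 0 in the fit of the 2 groups alone, against 1 as reported. Counts over all genes moved more. For HRAS+Bmi1 against MYC+Bmi1 (2742) the count was 4687 with array weights and 1175 to 2468 with 1 array left out, lowest without HRAS+Bmi1 replicate 1. For MYC+Ezh2 against MYC (49) it was 554 with weights, 202 without MYC replicates 4 and 5 together, 1 in the fit of the groups alone and 4 to 233 with 1 array left out, highest without MYC+Ezh2 replicate 1. For MYC+Bmi1 against MYC (30) it was 61, 245, 1 and 9 to 234 in the same order, highest without MYC+Bmi1 replicate 1. For HRAS+Bmi1 against HRAS (1178) it was 3460 with weights, 533 in the fit of the groups alone and 199 to 1801 with 1 array left out. For the Bmi1 interaction (485) it was 1711 with weights, 745 without MYC replicates 4 and 5, 135 in the fit of the groups alone and 98 to 1099 with 1 array left out. Fewer arrays enter the fits alone and the fits with arrays left out, and with arrays left out counts both rose and fell. The cause of these shifts was not tested.

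Same-numbered arrays of different groups did not deviate together in every pair (r from -0.26 to 0.34), so the numbers were not taken as pairs. With the replicate number as a block, MYC+Ezh2 against MYC gave 9 genes and no call on a member changed. Groups of 2 arrays and the absence of a depth measure limit the precision of every value in the consecutive groups.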

Other observations

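Some cultures carried signal of both sex-linked kinds, values picked out after they were seen. MYC replicate 3 read 7.69 for Xist and 7.66 for the Y-linked Eif2s3y, and MYC replicate 1 read 9.16 and 6.11. HRAS+MYC replicate 2 read 3.79 for Xist and 3.77 for Eif2s3y, with 7.61 for Uty, another Y-linked gene. MYC replicate 5 was low for Xist (4.48), Eif2s3y (3.81) and Uty (3.08). All 5 HRAS arrays had Xist between 3.86 and 4.47 and Eif2s3y between 7.80 and 8.65.

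Ptprz1, a receptor phosphatase of neural progenitors, also chosen after its values were seen, had group means of 3.22 in HRAS then MYC, 5.33 in HRAS, 6.50 in MYC then HRAS, 7.92 in HRAS+MYC and 9.54 in MYC.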
